A study of Mus musculus with 9 samples.

Results

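Of 55276 genes in the deposited table, 8 were followed, 5 serine proteases that sit in or on the cell membrane (*St14*, *Prss8*, *Tmprss2*, *Tmprss4* and *Hpn*), both Kunitz-type inhibitors that restrain such enzymes (*Spint1* and *Spint2*) and a receptor that proteases switch on (*F2rl1*). They were chosen by name for their roles, with earlier results of these data in view. Their lower level in *Vcam1* KO cells was therefore known when they were chosen, and their differences from control are given as a description. Which members passed the threshold of the fit over all genes is stated beside the share of all genes that did, with no p and not as evidence. A comparison of the KO clones with each other was tested.

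Type II and anchored serine proteases carry their active site on the outer face of epithelial cells, where they cleave growth factor precursors, ion channels and junction proteins. *St14* encodes matriptase and *Prss8* encodes prostasin, a pair of enzymes that act together in epithelial barriers, and the Kunitz proteins HAI-1 (*Spint1*) and HAI-2 (*Spint2*) block their active sites. *F2rl1* encodes the protease-activated receptor PAR2, a G-protein-coupled receptor that is switched on when a trypsin-like protease cuts its outer end. In bile duct and other simple epithelia these genes are part of the usual surface equipment.

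PPTR cells are a mouse intrahepatic cholangiocarcinoma (iCCA) line derived from a liver cancer model with an inducible Cre driven by *Prom1* and a ZsGreen reporter in the *Rosa* locus, a background that all 9 libraries share. RNA was sequenced from *Vcam1* ctrl cells, which the labels call WT, and from *Vcam1* KO1 and *Vcam1* KO2, each a clone grown from 1 cell after CRISPR targeting of *Vcam1*. Each group held 3 libraries of cells grown in serum-containing medium, taken at different passages, and the labels do not say which library came from which passage. Each KO group is therefore 1 clone, and the spread between its libraries is a spread between cultures of that clone. Library totals lay between 53415907 and 125223073 estimated counts, and 17672 genes passed the low-count filter. In *Vcam1* KO1 and *Vcam1* KO2, replicate 3 stood apart from the other 2 libraries, with a chi-square per degree of freedom of 121 to 317.3 in pairs that held it and of 37.9 to 40.6 in the pairs without it; pairs of control libraries gave 97.5 to 184.

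*Vcam1* transcript, read first, stood at 248.2, 220.5 and 329.2 CPM (counts scaled by TMM-adjusted library size) in *Vcam1* ctrl, at 98.8, 92.4 and 128.3 CPM in *Vcam1* KO1 and at 118.7, 99.4 and 83.0 CPM in *Vcam1* KO2. Every KO library lay below every control library. The log2 fold change of KO against ctrl was -1.36 (SE 0.17, adjusted p = 0.00021 by the quasi-likelihood test of edgeR, adjusted over all genes tested). The clones differed by 0.09 on the log2 scale (SE 0.2, adjusted p = 0.75). The transcript level does not show whether protein was made. The authors report that both clones lost Vcam1 by quantitative RT-PCR and by flow cytometry, which reads the protein.

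The summed markers of biliary epithelium, fibroblasts and hepatocytes differed between ctrl and the clones, whereas those of blood cells and endothelium overlapped. Of 10 biliary epithelial markers, the keratin genes *Krt8*, *Krt18* and *Krt19* stood at 5201.1 to 5570.1, 3178.8 to 3676.0 and 2129.0 to 2406.4 CPM in *Vcam1* ctrl and at no more than 0.497 CPM in any KO library, while *Sox9* stayed at or above 107.1 CPM in all 9 libraries. The summed level of the 10 genes was 13569.3 to 15249.9 CPM in *Vcam1* ctrl, 10618.0 to 11077.7 CPM in *Vcam1* KO1 and 7634.7 to 11082.3 CPM in *Vcam1* KO2, most of it from *Spp1* in the clones. The 12 fibroblast and stellate cell markers summed to 431.2 to 836.8 CPM in *Vcam1* ctrl, 12562.7 to 15974.5 CPM in *Vcam1* KO1 and 6769.8 to 9110.6 CPM in *Vcam1* KO2. *Col1a1* gave the largest part of the sum in the clones, and the list did not move as 1. *Dcn* stood at 58.3 to 105.3 CPM in *Vcam1* ctrl, 2.16 to 8.35 CPM in *Vcam1* KO1 and 51.7 to 113.2 CPM in *Vcam1* KO2. Over all libraries *Thy1* stayed at or under 0.287 CPM and *Des* at 4.19 to 12.3 CPM. *Lrat*, which defines stellate cells, had at most 3 counts in each group. The 7 hepatocyte markers summed to 45.4 to 184.3 CPM in *Vcam1* ctrl, 1.61 to 3.05 CPM in *Vcam1* KO1 and 0.281 to 0.565 CPM in *Vcam1* KO2, with *Tat* at or under 3 counts in each group. The 8 blood cell markers summed to 7.1 to 20.9 CPM and the 6 endothelial markers to 0.947 to 2.45 CPM over all libraries, with *Cd3e* at or under 3 counts in each group. Single blood cell markers did differ. *Csf1r* and *Ptprc* stood at 3.54 to 12.5 and 0.382 to 0.443 CPM in *Vcam1* ctrl and at no more than 1.53 and 0.0685 CPM in any KO library. *Lyz2* stood at 3.66 to 4.59 CPM in *Vcam1* KO1 and at no more than 0.325 CPM in the other groups. The part of these marker changes in the results below was not tested, and in bulk RNA fewer cells of a type and less RNA per cell cannot be told apart.

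The stretch before the start site is shown for members that were lower in the clones and for 1 that did not pass the threshold, since the letters CACCTG, or CAGGTG on the other strand, are the E-box read by ZEB and SNAI repressors of epithelial genes. RefSeq promoter entries (GRCm38.p6) were at hand for *Spint1*, *Spint2*, *Tmprss2* and *Hpn*, and the 250 bases before the start were read 5′ to 3′ in the direction of the gene, with E-box letters in capitals. The windows are *Spint2* chr7:29281978-29282227 (minus strand), *Hpn* chr7:31115327-31115576 (minus strand), *Spint1* chr2:119237110-119237359 (plus strand) and *Tmprss2* chr16:97611196-97611445 (minus strand).
Spint2: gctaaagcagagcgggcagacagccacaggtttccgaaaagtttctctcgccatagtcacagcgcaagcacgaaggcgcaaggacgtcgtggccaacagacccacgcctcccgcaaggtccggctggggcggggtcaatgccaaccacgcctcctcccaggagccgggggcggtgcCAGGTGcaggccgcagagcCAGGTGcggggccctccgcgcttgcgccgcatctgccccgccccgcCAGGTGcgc
Hpn: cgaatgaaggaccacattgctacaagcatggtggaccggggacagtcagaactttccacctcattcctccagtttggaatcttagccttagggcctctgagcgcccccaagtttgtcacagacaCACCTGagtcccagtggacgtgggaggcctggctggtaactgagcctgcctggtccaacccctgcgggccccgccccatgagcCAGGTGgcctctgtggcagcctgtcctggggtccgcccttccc
Spint1: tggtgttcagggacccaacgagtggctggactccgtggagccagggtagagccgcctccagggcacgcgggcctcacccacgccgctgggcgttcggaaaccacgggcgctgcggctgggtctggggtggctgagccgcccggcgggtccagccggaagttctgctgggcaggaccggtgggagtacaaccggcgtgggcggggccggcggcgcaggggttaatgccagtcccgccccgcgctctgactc
Tmprss2: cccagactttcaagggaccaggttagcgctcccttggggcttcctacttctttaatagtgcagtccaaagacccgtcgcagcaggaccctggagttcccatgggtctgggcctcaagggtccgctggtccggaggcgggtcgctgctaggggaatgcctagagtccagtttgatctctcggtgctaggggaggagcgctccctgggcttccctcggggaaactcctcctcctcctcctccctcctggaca

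The *Spint2* window held 3 E-boxes, at -74 to -69, -55 to -50 and -9 to -4 from the start site. At least 3 were present in 0.247% of the 32851 mouse promoter windows of this length, at least 2 in 2.06% and at least 1 in 17.2%. The first *Hpn* window held 2, at -126 to -121 and at -43 to -38, and a second *Hpn* window, chr7:31110998-31111247 (minus strand), held 0. The *Spint1* and *Tmprss2* windows held 0. The letters AACNNGTT, the core of the site read by grainyhead-like epithelial factors and the same on both strands, were in 0 of the 5 member windows and in 3.64% of all windows. The motifs were chosen with results in view, no AACNNGTT match was there to overlap an E-box, and a match is a description of the letters in these windows and not of binding.

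**Figure D1:**
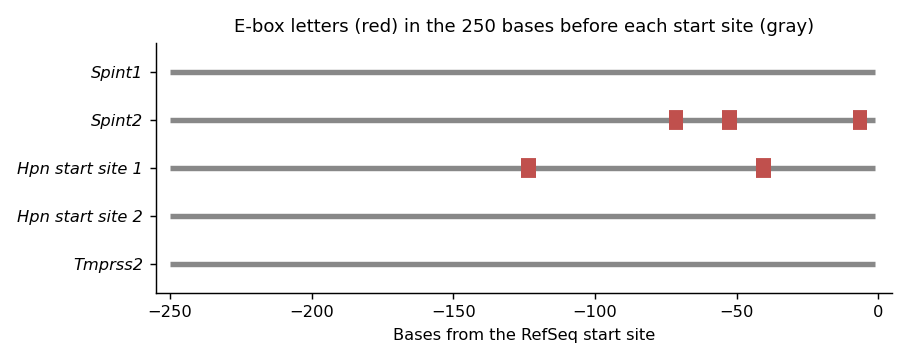
Position of E-box letters (CACCTG on either strand, red) in the 250 bases before the RefSeq start site of *Spint1*, *Spint2*, *Hpn* (2 start sites) and *Tmprss2*; the x axis is the distance from the start site in bases. *Spint2* held 3, the first *Hpn* window 2 and the other windows 0.

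Among the proteases, *Tmprss2* and *Tmprss4* carried nearly all of the signal in *Vcam1* ctrl and were close to 0 counts in both clones. *Tmprss2*, a type II protease of luminal epithelia (chr16:97564682-97611195, minus strand, GRCm38), stood at 38.4, 30.3 and 73.6 CPM in *Vcam1* ctrl, at 0.0898, 0.0626 and 0.0638 CPM in *Vcam1* KO1 and at 0, 0.0283 and 0.0148 CPM in *Vcam1* KO2. In counts, the *Vcam1* ctrl libraries held 1641 to 5817 and the KO libraries 0 to 6. *Tmprss2* was thus 668.0-fold higher in *Vcam1* ctrl than in *Vcam1* KO1 (95% counting interval 411.2 to 1169.0) and 3110.5-fold higher than in *Vcam1* KO2 (1064.1 to 15085.3). These intervals rest on summed counts and cover counting error only.

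*Tmprss4*, a related enzyme of epithelial tumours (chr9:45172726-45204092, minus strand), stood at 8.48, 4.80 and 17.0 CPM in *Vcam1* ctrl. It had 0 counts in the 3 *Vcam1* KO1 libraries and 1, 1 and 0 counts in the *Vcam1* KO2 libraries. The level in *Vcam1* ctrl was at least 775.1-fold higher than in *Vcam1* KO1, against a limit of 3 counts over the group, and 1015.2-fold higher than in *Vcam1* KO2 (280.8 to 8387.0). No fold was formed between the clones, since both were at or under that limit.

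*St14*, *Prss8* and *Hpn* were scarce already in *Vcam1* ctrl. Matriptase transcript, *St14* (chr9:31089402-31131853, minus strand), stood at 0.454, 0.314 and 0.481 CPM in *Vcam1* ctrl, at 0.195, 0.198 and 0.239 CPM in *Vcam1* KO1 and at 0.0685, 0.0707 and 0.0740 CPM in *Vcam1* KO2. The 3 groups did not overlap, and they stood in the order ctrl, KO1, KO2, with 17 to 57, 13 to 19 and 4 to 5 counts per library. *St14* in *Vcam1* ctrl was 2.07-fold the level in *Vcam1* KO1 (1.46 to 2.98) and 6.08-fold the level in *Vcam1* KO2 (3.48 to 11.5).

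Prostasin transcript, *Prss8* (chr7:127925716-127930104, minus strand), had 22, 2 and 25 counts in *Vcam1* ctrl, 4, 4 and 6 in *Vcam1* KO1 and 1, 1 and 2 in *Vcam1* KO2. Control replicate 2, at 0.0369 CPM, lay below every *Vcam1* KO1 library and above every *Vcam1* KO2 library. *Prss8* did not pass the low-count filter, which 2 libraries reached, and was not tested. *St14*, *Prss8* and *Tmprss4* overlap annotated genes on the opposite strand, and the authors' counting kept strand. The summed counts gave 3.05-fold (1.66 to 5.98) and 9.31-fold (3.41 to 35.5) higher levels in *Vcam1* ctrl than in *Vcam1* KO1 and *Vcam1* KO2.

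Hepsin, *Hpn* (chr7:31098725-31115290, minus strand), a type II protease best known from liver and prostate, was the member that differed least from control. It stood at 0.892, 0.554 and 0.405 CPM in *Vcam1* ctrl, at 0.389, 0.313 and 0.766 CPM in *Vcam1* KO1 and at 0.463, 0.283 and 0.340 CPM in *Vcam1* KO2. The 3 groups overlapped. The log2 fold changes were -0.36 (SE 0.44) for *Vcam1* KO1 and -0.78 (SE 0.45) for *Vcam1* KO2, and neither passed the threshold.

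**Figure D2:**
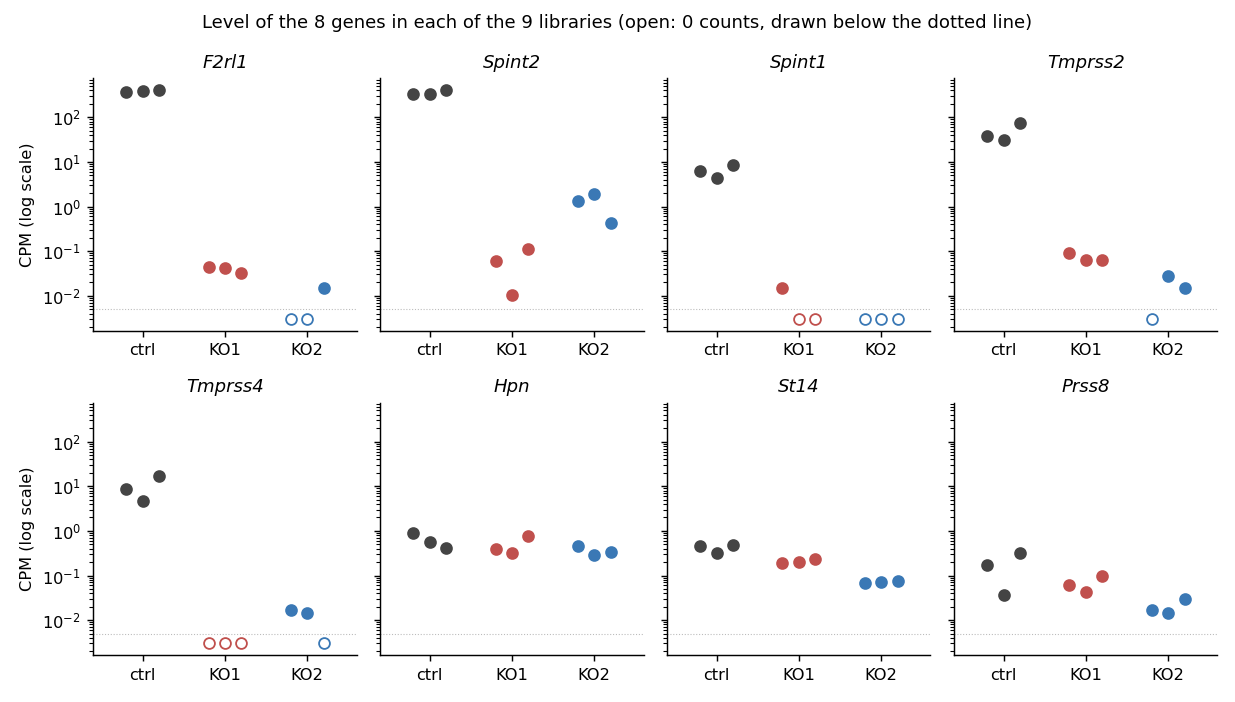
Level in CPM (log scale) of each of the 8 genes in the 3 *Vcam1* ctrl, 3 *Vcam1* KO1 and 3 *Vcam1* KO2 libraries, with 1 point per library in replicate order and open points for 0 counts. *F2rl1*, *Spint2*, *Spint1*, *Tmprss2* and *Tmprss4* sit far below control in every KO library, and *St14* by a smaller step. All groups overlap for *Hpn*, while for *Prss8* only *Vcam1* ctrl and *Vcam1* KO1 overlap.

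Both inhibitors were far lower in the clones, and *Spint2* was lower to a different degree in each. *Spint2* (chr7:29256323-29281912, minus strand), whose product HAI-2 also acts inside the secretory route, stood at 333.9, 334.3 and 400.5 CPM in *Vcam1* ctrl. It stood at 0.0599, 0.0104 and 0.112 CPM in *Vcam1* KO1 and at 1.32, 1.88 and 0.429 CPM in *Vcam1* KO2. All *Vcam1* KO2 libraries lay above all *Vcam1* KO1 libraries, and all KO libraries lay below all control libraries. The fold of *Vcam1* ctrl was 6652.1 over *Vcam1* KO1 (3808.0 to 12874.4) and 291.6 over *Vcam1* KO2 (256.9 to 332.5).

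*Spint1* (chr2:119237362-119249527, plus strand), which encodes HAI-1, the main surface inhibitor of matriptase, stood at 6.42, 4.39 and 8.66 CPM in *Vcam1* ctrl. It had 1 count in *Vcam1* KO1 replicate 1 and 0 in the other 5 KO libraries. The level in *Vcam1* ctrl was 1505.3-fold that in *Vcam1* KO1 (269.8 to 59489.7) and at least 438.1-fold that in *Vcam1* KO2.

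The receptor gene *F2rl1* (chr13:95511732-95525227, minus strand) stood at 365.5, 390.7 and 412.0 CPM in *Vcam1* ctrl, a spread of 1.13-fold between the lowest and the highest library. It had 3, 4 and 2 counts in *Vcam1* KO1 and 0, 0 and 1 in *Vcam1* KO2, against 21171 to 45864 counts in *Vcam1* ctrl. The fold of *Vcam1* ctrl was 9635.7 over *Vcam1* KO1 (5075.7 to 21073.2) and 75718.4 over *Vcam1* KO2 (13589.7 to 2990747.7), the latter resting on 1 count.

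**Figure D3:**
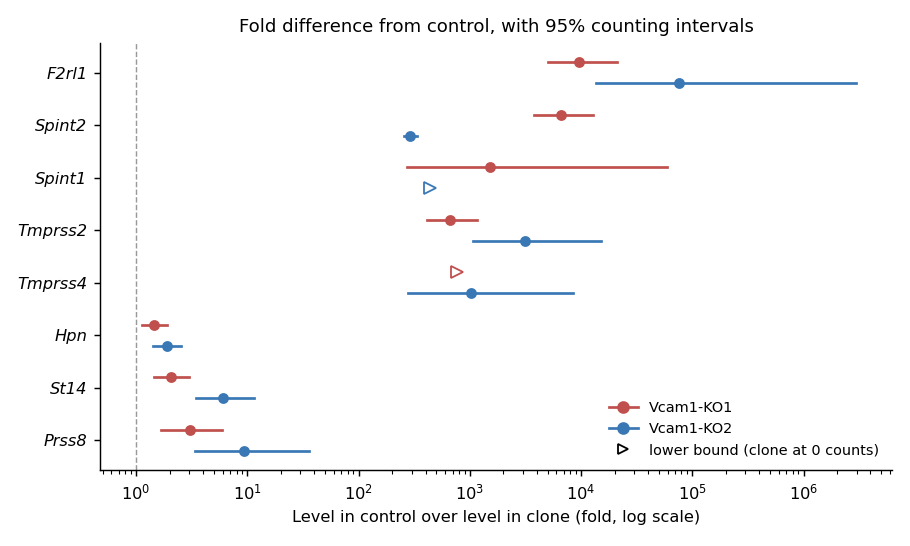
Level in *Vcam1* ctrl over the level in each clone for the 8 genes (log scale), from summed counts with 95% counting intervals; open arrowheads are lower bounds where the clone had 0 counts. *F2rl1* and *Spint2* in *Vcam1* KO1 lie at 9635.7-fold and 6652.1-fold, while *Hpn*, *St14* and *Prss8* lie between 1.46-fold and 9.31-fold.

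In the fits over all genes, 6 of the 7 members tested were called lower in KO against ctrl, beside 21.2% of all genes tested. The 6 were *St14*, *Tmprss2*, *Tmprss4*, *Spint1*, *Spint2* and *F2rl1*, with log2 fold changes of -1.55 (SE 0.47) for *St14* and of -9.14 to -13.92 for the others, which near 0 counts depend on the prior count of the fit. The same 6 were called lower in *Vcam1* KO1, beside 30.0% of all genes, and in *Vcam1* KO2, beside 26.1%. These shares are read for context alone, since the members were chosen on this contrast, and *Tmprss2*, *Tmprss4*, *Spint1* and *F2rl1* passed the filter through *Vcam1* ctrl only. Every KO library lay below every control library for 6 of the 8 genes, beside 23.0% of all genes tested. The median log2 fold change of all genes was 0.07 in KO, 0.02 in *Vcam1* KO1 and 0.00 in *Vcam1* KO2. The *St14* call in KO against ctrl was lost without control replicate 1 or 3, with log2 fold changes of -1.49 and -1.45, and in *Vcam1* KO1 it was lost without control replicate 1 or 3 or KO1 replicate 1 or 2 (-0.89 to -0.99) and without the filter (-1.06).

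The roles were compared per length, in CPM per kb of transcript. In *Vcam1* ctrl the order was *Spint2* (274.6 ± 29.5, SD, n = 3), *F2rl1* (142.1 ± 8.5), *Tmprss2* (15.0 ± 7.28), *Tmprss4* (4.42 ± 2.75), *Spint1* (2.86 ± 0.94), *Hpn* (0.35 ± 0.142), *St14* (0.128 ± 0.0275) and *Prss8* (0.0989 ± 0.0784). *Spint2* and *F2rl1* lay above 98.2% and 96.1% of the tested genes with a length, *St14* and *Prss8* above 9.25% and 8.0%. Mean levels of *Tmprss4* and *Spint1*, and of *St14* and *Prss8*, differed by less than the larger SD of each pair. Matriptase and prostasin, the pair for which HAI-1 and HAI-2 are named as inhibitors, were thus near the bottom of the range in cells whose *Spint2* level was near the top.

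Summed by role, the 5 proteases stood at 16.6, 12.1 and 31.3 CPM per kb in *Vcam1* ctrl and at 0.205 to 0.582 in the KO libraries. The 2 inhibitors stood at 260.2, 259.6 and 312.5 CPM per kb in *Vcam1* ctrl, at 0.0527, 0.00804 and 0.0861 in *Vcam1* KO1 and at 1.02, 1.45 and 0.331 in *Vcam1* KO2. The ratio of inhibitor to protease transcripts was 15.7, 21.4 and 9.99 in *Vcam1* ctrl, 0.154, 0.0285 and 0.148 in *Vcam1* KO1 and 3.38, 7.06 and 1.39 in *Vcam1* KO2. Inhibitor transcripts thus exceeded protease transcripts in every *Vcam1* ctrl and *Vcam1* KO2 library and were below them in every *Vcam1* KO1 library, where the inhibitor sums rest on 12 counts of *Spint2* and 1 of *Spint1*. The protease sum in *Vcam1* ctrl was mostly *Tmprss2*, whereas in the clones it was mostly *Hpn*, at 0.278 ± 0.138 CPM per kb in *Vcam1* KO1 and 0.205 ± 0.0521 in *Vcam1* KO2.

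**Figure D4:**
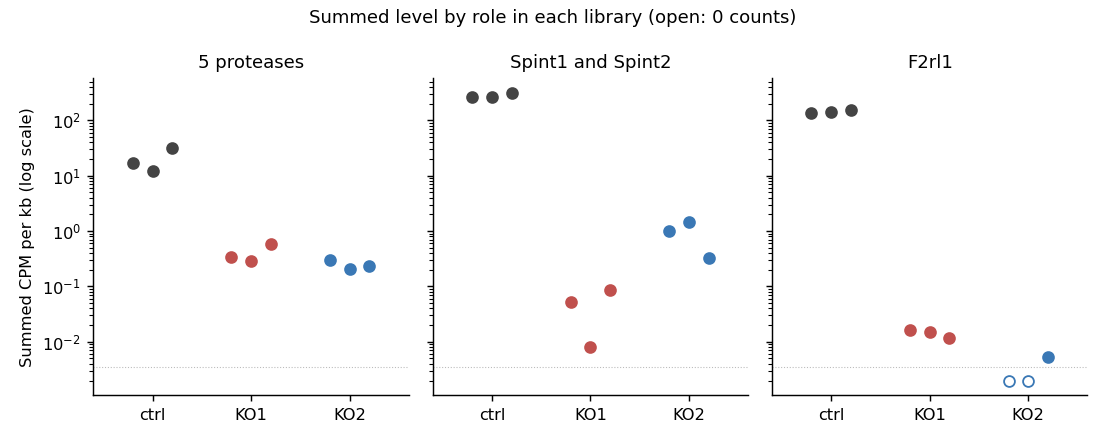
Summed CPM per kb (log scale) of the 5 proteases, of *Spint1* with *Spint2* and of *F2rl1*, with 1 point per library and open points for 0 counts. The inhibitors lie above the proteases in *Vcam1* ctrl, below them in *Vcam1* KO1 and above them again, at 0.331 to 1.45 CPM per kb, in *Vcam1* KO2.

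The clones were compared with each other to see whether the residual levels were alike. Of the 7 members tested, 3 differed, beside 38.7% of all genes called in either direction. *Spint2* was lower in *Vcam1* KO1 than in *Vcam1* KO2 by a log2 difference of -4.44 (SE 0.68, adjusted p = 0.001 in edgeR's quasi-likelihood test). Without replicate 3 of *Vcam1* KO1 the difference was -5.22 and without replicate 3 of *Vcam1* KO2 it was -4.88, and it passed the threshold in each alternative run. In summed counts *Spint2* in *Vcam1* KO2 was 22.8-fold the level in *Vcam1* KO1 (12.8 to 44.8).

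*St14* and *F2rl1* differed the other way. *St14* was higher in *Vcam1* KO1 by 1.54 (SE 0.36, adjusted p = 0.0084 in edgeR's test), a call that held in each alternative that kept the gene, with adjusted p from 0.007 to 0.045. *F2rl1* was higher in *Vcam1* KO1 by 2.63 (SE 0.67, adjusted p = 0.035 in edgeR's test), from 9 counts against 1. It passed the filter through its control level only and dropped out of the fit of the clones alone. In that fit 3 members were tested and 2, *Spint2* and *St14*, differed. *St14* reached the filter level in 3 *Vcam1* KO1 and 0 *Vcam1* KO2 libraries, and *Spint2* in 0 and 3. Each thus entered the fit of the clones alone through the clone where it was higher, so that fit is no separate support. The *F2rl1* call was lost with DESeq2 (adjusted p = 0.058), without the filter (0.064), and without replicate 1 or 2 of either clone (0.071 to 0.14). *Tmprss2* (2.11, SE 0.9, adjusted p = 0.092) and *Hpn* (0.43, SE 0.45, adjusted p = 0.48) did not pass the threshold in edgeR's test, and *Prss8* had 14 counts against 4, a ratio of 3.06 (0.96 to 12.7).

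Around these 8 genes, 94 genes of the same pathway were listed by hand, and 52 of the 93 in the table were tested. In KO against ctrl 10 rose and 18 fell, beside 21.7% and 21.2% of all genes. In *Vcam1* KO1 13 rose and 24 fell, beside 29.9% and 30.0%, and in *Vcam1* KO2 13 rose and 24 fell, beside 25.3% and 26.1%. The same control libraries entered both clone comparisons. Between the clones 27 of the 52 differed, beside 38.7% of all genes. All adjusted p values that follow are from edgeR's quasi-likelihood test. The lists were chosen with earlier results of these data known, so calls and adjusted p values against ctrl are a description and not evidence. *Ambp*, *Papln*, *Wfdc2*, *Serpina1a*, *Serpina1b*, *Dsg2* and *Epcam* had at most 0.0898 CPM in any KO library and passed the filter through *Vcam1* ctrl only. *Ocln*, *Prss35* and *Serpinb5* had at most 0.163, 0.17 and 0.292 CPM in a KO library. They also passed through *Vcam1* ctrl, since too few KO libraries reached the filter level of 0.152 CPM. Near 0 counts the size of a fall depends on the prior count of the fit.

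Of 22 other genes listed by hand as membrane serine proteases, 5 were tested, and 2 rose and 0 fell in KO against ctrl. The median log2 fold change of 0.75 was that of *Prss22*, which moved in opposite directions in the clones. *Tmprss6*, the protease that cleaves hemojuvelin in iron control, stood at 1.34, 0.812 and 3.14 CPM in *Vcam1* ctrl, 3.13 to 3.8 CPM in *Vcam1* KO1 and 3.96 to 6.29 CPM in *Vcam1* KO2. Its log2 fold change was 1.32 (SE 0.46, adjusted p = 0.044), and the call was lost in 7 of 15 alternatives, among them leaving out control replicate 1 or 2, KO1 replicate 1 or any *Vcam1* KO2 replicate. The other gene that rose, *Tmprss11f*, is named after its values were seen and had a mean of 0 CPM in *Vcam1* ctrl and of 0.532 and 0.257 CPM in the clones. *Prss22*, a serine protease of the tryptase family, was noticed after its values were seen. It fell in *Vcam1* KO1 (-4.96) and rose in *Vcam1* KO2 (1.74), from a mean of 5.09 CPM in *Vcam1* ctrl to 0.156 and 17.0 CPM, and its pooled value of 0.75 did not pass the threshold.

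Of 12 other Kunitz-domain genes, 6 were tested, and 1 rose and 2 fell (median -0.3). *Aplp2*, an amyloid precursor-like protein, rose from 409.5 ± 70.3 CPM (SD, n = 3) to 1225.0 ± 251.2 CPM in *Vcam1* KO1 and 710.5 ± 113.4 CPM in *Vcam1* KO2 (log2 fold change 1.24, adjusted p = 0.0086). *Ambp*, the precursor of bikunin, fell from 9.47, 7.03 and 34.0 CPM in *Vcam1* ctrl to at most 0.0424 CPM in the KO libraries (-10.28, adjusted p = 1.9e-05). *Papln*, which encodes papilin of the extracellular matrix, fell from 3.24 ± 0.294 CPM to 0.051 ± 0.0336 and 0.0414 ± 0.0119 CPM (-6.1, adjusted p = 3.5e-06). *Tfpi*, the inhibitor of the tissue factor pathway, was noticed after its values were seen. It rose in *Vcam1* KO1 (1.0) and fell in *Vcam1* KO2 (-5.92), with means of 4.1, 8.2 and 0.0671 CPM in ctrl, KO1 and KO2.

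Of 18 serpins and whey acidic protein (WAP) inhibitors, 16 were tested, and 4 rose and 6 fell (median 0.02). *Wfdc2*, a WAP protein of secretory epithelia, fell from 280.4, 325.1 and 387.8 CPM to at most 0.0749 CPM (-13.82, adjusted p = 4.2e-07). *Serpina1b* and *Serpina1a*, genes of the liver elastase inhibitor, fell with log2 fold changes of -11.94 and -10.29 (adjusted p = 3.5e-06 and 8.3e-06), from means of 91.0 ± 57.0 and 8.11 ± 4.87 CPM. These copies are close in sequence, so their split between symbols is uncertain. *Serpinb5*, which encodes maspin, fell from 4.11 ± 1.09 CPM to 0.197 ± 0.111 and 0.0164 ± 0.0172 CPM (-5.22, adjusted p = 0.0017). The rises included *Slpi*, a secreted elastase inhibitor (4.62), *Serpine2*, protease nexin-1 (1.13), and *Serpinb9*, an inhibitor of granzyme B (1.13), which were noticed after their values were seen.

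The 6 receptors and cofactors for clotting proteases included the other protease-activated receptors, and of the 5 tested 0 rose and 2 fell (median -0.51). *F2r*, the thrombin receptor PAR1, stood at 131.3, 85.3 and 170.3 CPM in *Vcam1* ctrl, 90.5, 130.6 and 89.8 CPM in *Vcam1* KO1 and 82.8, 77.7 and 71.3 CPM in *Vcam1* KO2. Its difference from control was -0.51 (SE 0.24, adjusted p = 0.11) in the pooled comparison and -0.74 (adjusted p = 0.027) in *Vcam1* KO2, where the call was lost on leaving out control replicate 1 or 3 or any *Vcam1* KO2 replicate (adjusted p up to 0.1). *F2rl2* (PAR3) was at 0.0522 CPM or less in every library and was not tested, and *F2rl3* (PAR4) was at 0.0185 to 0.479 CPM with a log2 fold change of 0.64 (SE 0.75, adjusted p = 0.52). *F2r* was thus the protease-activated receptor with the highest level in the clones, whereas *F2rl1* had at most 4 counts in a library.

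Among the cofactors, *Thbd*, which encodes the thrombin-binding protein thrombomodulin, fell from 71.1 ± 25.2 CPM to 4.18 ± 1.94 and 2.81 ± 0.757 CPM (-4.34, adjusted p = 1.4e-05). *Procr*, the endothelial protein C receptor gene, fell from 23.2 ± 0.936 CPM to 3.65 ± 0.65 and 9.05 ± 1.07 CPM (-1.87, adjusted p = 0.0035). *F3*, tissue factor, stood at 49.4, 46.8 and 56.1 CPM in *Vcam1* ctrl, 202.3, 271.4 and 196.1 CPM in *Vcam1* KO1 and 45.9, 32.5 and 19.8 CPM in *Vcam1* KO2. It rose in *Vcam1* KO1 (2.14, SE 0.27, adjusted p = 0.00012) but not in *Vcam1* KO2 (-0.63, SE 0.26, adjusted p = 0.071), and the clones differed by 2.77 (adjusted p = 0.00011). The lower *F3* level in *Vcam1* KO2 passed the threshold in 5 of 15 alternatives, among them limma-voom (adjusted p = 0.041) and DESeq2 (0.039).

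Of 22 secreted or soluble serine proteases, 10 were tested, and 3 rose and 3 fell (median 0.73). *Prss23*, a secreted protease, stood at 3.2, 4.32 and 2.68 CPM in *Vcam1* ctrl, 327.0, 343.7 and 527.6 CPM in *Vcam1* KO1 and 100.3, 106.2 and 59.9 CPM in *Vcam1* KO2 (6.17, SE 0.89, adjusted p = 0.00051). *Htra1*, a secreted protease of the matrix, noticed after its values were seen, rose by 3.36 from a mean of 68.8 CPM to 718.7 and 692.1 CPM. *Prss35*, a protease-like protein, fell from 11.5 ± 3.09 CPM to 0.0311 ± 0.00101 and 0.124 ± 0.0512 CPM (-7.2, adjusted p = 1.4e-05). *Hgfac*, the activator of hepatocyte growth factor, fell from 61.8 ± 28.5 CPM to 0.643 ± 0.0678 and 0.596 ± 0.214 CPM (-6.64, adjusted p = 1e-06). *Proc*, the gene of protein C, fell from 11.8 ± 2.47 CPM to 0.184 ± 0.0747 and 0.152 ± 0.133 CPM (-6.1, adjusted p = 1.9e-05).

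Of 14 substrates and partners, 10 were tested, and 0 rose and 5 fell (median -1.7). The junction proteins desmoglein 2 (*Dsg2*) and occludin (*Ocln*) fell with log2 fold changes of -11.13 and -9.27 (adjusted p = 6.2e-08 and 2.1e-05), from 136.9 ± 41.8 and 36.8 ± 10.3 CPM to at most 0.163 CPM in a KO library. *Epcam*, the epithelial adhesion molecule that matriptase cleaves, fell from 22.0 ± 4.92 CPM to at most 0.0898 CPM (-10.05, adjusted p = 1.5e-05). *Plaur*, the urokinase receptor gene, fell from 234.3, 245.3 and 223.5 CPM to 10.9, 18.9 and 4.26 CPM in *Vcam1* KO1 and 73.7, 78.7 and 86.9 CPM in *Vcam1* KO2 (-2.36, SE 0.79, adjusted p = 0.036). The pooled *Plaur* call was lost without any 1 of the control replicates or without KO1 replicate 1 or 2 (adjusted p up to 0.086), while each clone alone passed the threshold (-4.36 and -1.55).

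**Figure D5:**
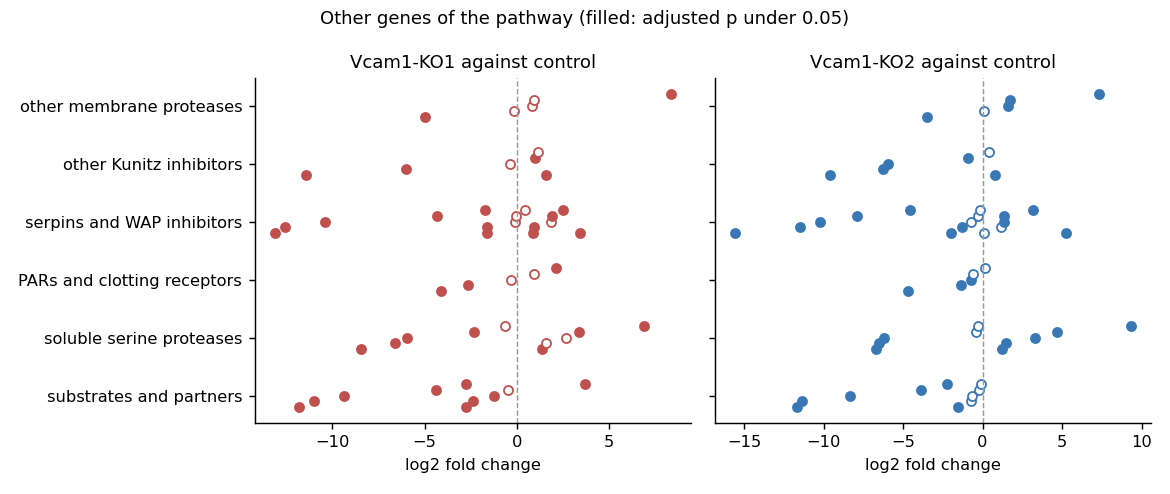
Log2 fold change of the 52 tested pathway genes in *Vcam1* KO1 and *Vcam1* KO2 against *Vcam1* ctrl, by list, with filled points for adjusted p under 0.05. The furthest fall is that of *Wfdc2* in *Vcam1* KO2, at -15.59, which rests on 1 count in that clone and depends on the prior count of the fit. The substrates and partners lie mostly to the left of 0.

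The members did not share 1 profile. The root mean square difference of centred log2 CPM over the 9 libraries was 0.46 between *Tmprss4* and *Spint1* and 0.5 between *St14* and *Prss8*, and 2.54 between *F2rl1* and *Spint2*. For genes near 0 counts in the clones, this measure depends largely on the control level. *F2rl1* and *Spint1*, both near 0 counts in the clones, had control means of 389.4 and 6.49 CPM and also differed by 2.54. Likeness by this measure is therefore not read as shared regulation. The nearest genes to *F2rl1* were *Wfdc2* (0.42), *Hnf4a* (0.49) and *Anxa13* (0.81). Those nearest to *Spint2* were *Rbp4* (0.56), *Ptprb* (1.09) and *Krt20* (1.1), and *Rbp4* had means of 403.2, 0.0997 and 1.19 CPM in ctrl, KO1 and KO2. *Spint1* lay nearest to *0610040J01Rik* (0.18), *Fam83b* (0.21) and *Esrp1* (0.24), *Tmprss2* to *Smim6* (0.43), *Calml4* (0.47) and *Arhgef16* (0.52), and *Tmprss4* to *Gcnt3* (0.36), *Kcns3* (0.38) and *Crisp1* (0.39). The scarce proteases lay nearest to genes with small steps between groups, *St14* to *Pigv* (0.15), *Tob1* (0.18) and *Dock5* (0.19), *Prss8* to *Adgrb2* (0.37), *Tppp3* (0.39) and *Aqp11* (0.41), and *Hpn* to *Sox5* (0.23), *1700017B05Rik* (0.28) and *Sde2* (0.29).

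The control libraries also differed among themselves. Replicate 3 was the highest of the 3 for 7 of the 8 members, all but *Hpn*, and replicate 2 the lowest for 5, whereas replicate 3 was the highest for 37.3% of all tested genes and replicate 2 the lowest for 40.4%. The highest control library exceeded the lowest by 1.13-fold for *F2rl1*, 1.2-fold for *Spint2*, 1.97-fold for *Spint1*, 2.43-fold for *Tmprss2*, 3.55-fold for *Tmprss4*, 2.21-fold for *Hpn*, 1.53-fold for *St14* and 8.57-fold for *Prss8*, which had 2 counts in the lowest library. The hepatocyte markers summed to 76.6, 45.4 and 184.3 CPM in the same 3 libraries. Their part in this spread was not tested, and the pattern was noticed after the values were seen.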

How the data were processed

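RNA of 9 cell cultures (3 *Vcam1* ctrl, 3 *Vcam1* KO1, 3 *Vcam1* KO2) was sequenced by the authors as stranded, paired-end mRNA libraries. The authors quantified reads with kallisto 0.46.1 (version from the submitters' processing notes) on mm10 transcripts and deposited estimated counts per gene, with no normalization. The step that sums transcripts to genes is not given in the sources used here. All values were whole numbers, and 0 value columns were left out. Samples were grouped by their labels, which give no batch and no replicate numbers, so replicates are numbered in label order and were not paired. No files were found to be duplicates. Some alleles of the line and 1 marker gene are not reported here.

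Counts were filtered with filterByExpr (minimum count 10), scaled with TMM and tested with edgeR 4.0.16 (quasi-likelihood test, Benjamini-Hochberg, adjusted p under 0.05) in R 4.3.3. KO against ctrl used 2 groups, the clone contrasts 3 groups. In the clone contrasts, p values measure the spread between libraries of 1 culture or clone. In KO against ctrl the clones were merged into 1 group, so its spread also holds the difference between the clones. Members and lists were chosen with earlier results of these data known. Folds of members are ratios of summed counts per effective library size with exact 95% intervals; a group at 0 was set at 3 counts, and no fold was given where both groups had 3 or fewer. Log2 profiles used a prior count of 2, and likeness was measured against genes with a mean of at least 1 CPM.

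Transcript lengths and gene positions came from GENCODE vM21 on GRCm38, another release than the authors used, and 14242 of the 17672 tested genes (80.6%) had a length. Promoter sequences came from RefSeq on GRCm38.p6. Named genes were the 8 members, *Vcam1*, the 4 largest changes per pathway list among called genes with a mean of at least 1 CPM in 1 group, all receptors and cofactors for clotting proteases, markers at or near 0 or differing between groups, and the 3 nearest genes to each member. Others are named in the text as noticed afterwards. Alternatives were upper-quartile scaling, limma-voom (limma 3.58.1), DESeq2 1.42.0, no filter, a mean of at least 1 CPM, other samples in the fit, an adjusted p of 0.01 and leaving out each library. With other samples in the fit, each clone contrast used the libraries of its own groups alone. KO against ctrl there kept all 9 libraries, with the clones as separate groups and their mean set against ctrl. The fits were tested on simulated data. Tables and figures were made with python 3.11.15, pandas 2.3.3, numpy 2.4.6 and matplotlib 3.10.9.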

Additional observations from a re-analysis of the deposited data

Results flagged for a closer look

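The effect relative to *Vcam1* ctrl differed between the clones for 3 of the 7 members tested and 27 of the 52 pathway genes tested, beside 38.7% of all genes. The test was that of *Vcam1* KO1 against *Vcam1* KO2 (log2 difference, adjusted p from edgeR). Of the 28 pathway genes named and tested 12 differed, a count not set against that share, since some were named after their values were seen. Higher in *Vcam1* KO1 were *St14* (1.54, 0.0084), *F2rl1* (2.63, 0.035), *Aplp2* (0.79, 0.012), *Serpinb5* (3.57, 0.0065), *F3* (2.77, 0.00011), *Prss23* (2.17, 0.00041) and *Tfpi* (6.91, 3.1e-06). Lower in *Vcam1* KO1 were *Spint2* (-4.44, 0.001), *Procr* (-1.31, 0.00043), *Prss35* (-1.96, 0.01), *Ocln* (-3.44, 0.0078), *Plaur* (-2.81, 0.00094), *Prss22* (-6.69, 8.5e-06), *Slpi* (-1.82, 0.0028) and *Serpine2* (-0.41, 0.036). *Tfpi*, *Prss22*, *Slpi* and *Serpine2* were named after their values were seen, so their adjusted p values are a description and not evidence. The *Aplp2* difference was lost without *Vcam1* KO2 replicate 3 (adjusted p = 0.056), that of *Prss35* with limma-voom (0.063), and that of *Serpine2* in 6 of 15 alternatives (adjusted p up to 0.11). *F2rl1* passed the filter through control only, and its difference rests on 9 counts against 1. *Serpinb5*, *Prss35* and *Ocln* also passed through control, since too few KO libraries reached the filter level. Within the clones, *St14* reached that level in *Vcam1* KO1 alone and *Spint2* in *Vcam1* KO2 alone. For *F2rl1*, *Serpinb5*, *Prss35* and *Ocln* at least 1 clone held so few counts that the size of the difference is loosely set. Groups of 3 libraries are too small for a test of single libraries that stand apart.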

How the results depend on the processing

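The number of members called was 6 in each comparison with control and ranged from 5 to 7 over 16 alternatives, and between the clones it was 3 and ranged from 2 to 4. Pathway genes called numbered 28 in KO against ctrl (22 to 42 over 16 alternatives), 37 in *Vcam1* KO1 (34 to 44), 37 in *Vcam1* KO2 (33 to 43) and 27 between the clones (22 to 30). The 42 in KO against ctrl came from fitting the clones as separate groups in place of 1 KO group. *Hpn* changed direction in *Vcam1* KO1 against ctrl without WT replicate 1 (0.01; range without 1 library each -0.82 to 0.01) and between the clones without KO1 replicate 3 (-0.04; range -0.04 to 0.67), with none of these past the threshold. *Tmprss2* passed the threshold between the clones without WT replicate 3 (2.11, adjusted p = 0.023). *Prss8*, untested in the fits reported, had log2 fold changes of -2.1, -1.56 and -3.1 in KO, *Vcam1* KO1 and *Vcam1* KO2 without the filter. Of the member values under the alternatives, 364 kept direction and side of the threshold, 13 lost the call, 1 gained it and 2 changed direction. The cause of these changes was not tested. No paired analysis was possible because the labels give no replicate numbers shared between groups. With 0 to 6 counts per KO library for *Tmprss2*, *Tmprss4*, *Spint1* and *F2rl1*, depth limits the size of their folds and not their direction.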
